A study of Mus musculus with 3072 samples.

Results

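The 6 cyclin-dependent kinase (CDK) inhibitor genes, Cdkn1a, Cdkn1b, Cdkn1c, Cdkn2a, Cdkn2c and Cdkn2d, were followed through single bone marrow cells of 8 mice. They were taken by symbol from the deposited count matrix, where each stood on 1 row, and make 6 of its 55291 gene symbols. The mice were C57BL/6, of genotype WT, and carried transplanted barcoded stem cells. The 4 control mice were sampled at week 32 after transplantation and the 4 mice labelled platelet_depleted at week 28. Treatment, week and experiment code coincided, so they cannot be told apart, and the labels read here do not say how platelets were depleted. Samples were assigned to mice by the first code in their titles, although the labels do not call it a mouse. Each mouse gave a plate of 96 wells of the sorted population named HSC, a plate of CFU and 2 plates of MkP, names that the labels do not spell out, and each well was made into a Smart-seq2 library. Counts of kept cells were added per mouse and population, which gave 24 sums. A level below is in CPM, a gene's count in such a sum scaled to a common library total after trimmed-mean (TMM) scaling, and n counts mice.

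CDK inhibitors bind the kinases that drive the cell cycle, or their complexes with cyclins, and hold them back. The Cip/Kip genes Cdkn1a, Cdkn1b and Cdkn1c encode p21, p27 and p57, which act on several cyclin and kinase complexes. The INK4 genes Cdkn2a, Cdkn2c and Cdkn2d encode p16, p18 and p19, which block Cdk4 and Cdk6, and Cdkn2a also encodes the Arf protein from another reading frame. In blood-forming tissue these genes are known for their part in stem cell quiescence and in leaving the cycle during maturation.

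The sums held between 68792249 and 327869432 counts, from 2668 kept cells. The summed level of 10 stem cell markers, Procr and Hlf among them, was 1175 to 1889 CPM in HSC, 521 to 646 in MkP and 84.4 to 117 in CFU. The 10 megakaryocyte markers, Pf4 and Gp9 among them, summed to 3646 to 6071 CPM in MkP against 1377.5 to 1849 in HSC and 18.7 to 40.5 in CFU. The 10 erythroid markers, Klf1 and Epor among them, summed to 14501 to 20363 CPM in CFU against at most 2674 in HSC and 2373 in MkP. Markers of other cell types had counts in some sums. The 8 myeloid markers ranged from 2.43 to 1313 CPM over the CFU sums, and the 6 neutrophil markers from 0 to 3965 there. Neutrophil markers also reached 459 CPM among depleted HSC sums, against at most 7.08 in control HSC. The 6 B cell markers reached 194 CPM among depleted CFU sums, against at most 13.1 in control CFU. The 5 mast cell and basophil markers reached 777 in 1 MkP sum. The 5 T and NK cell markers summed to 281.5 to 460.4 CPM in MkP, while Cd3e and Cd3g were at 0 in all 3 populations. Whether these counts came from other cell types was not tested, nor was their part in the inhibitor values.

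The windows before start sites of Cdkn1a, Cdkn1b, Cdkn2c and Cdkn2d are shown first. Of these genes, Cdkn1a, Cdkn1b and Cdkn2d were lower in CFU than in HSC and MkP. Cdkn2d was also higher in MkP than in HSC, and Cdkn2c passed in no contrast between populations. RefSeq windows on GRCm38.p6 matched 5 of the 6 genes, all but Cdkn1c, with 8 start sites in all. Each is the 250 bases before the annotated start, 5′ to 3′ on the gene's strand, and capitals mark 3 patterns searched on either strand. The first is the GC box with the letters GGGCGG. The next is the CAAT box, with CCAAT. The last is a pair of CATG cores with any 6 bases between them, the spacing in an element of the p53 type, which was added after the first Cdkn1a window had been read. The windows lie at chr17:29090729-29090978 and chr17:29093519-29093768 on the plus strand (Cdkn1a), chr6:134920151-134920400 on the plus strand (Cdkn1b), chr4:109666757-109667006 on the minus strand (Cdkn2c) and chr9:21291210-21291459 on the minus strand (Cdkn2d).
Cdkn1a, first start: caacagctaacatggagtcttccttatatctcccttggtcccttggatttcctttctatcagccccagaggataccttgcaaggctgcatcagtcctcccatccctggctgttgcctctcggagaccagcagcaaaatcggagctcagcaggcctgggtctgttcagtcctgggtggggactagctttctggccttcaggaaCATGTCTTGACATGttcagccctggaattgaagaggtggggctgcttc
Cdkn1a, second start: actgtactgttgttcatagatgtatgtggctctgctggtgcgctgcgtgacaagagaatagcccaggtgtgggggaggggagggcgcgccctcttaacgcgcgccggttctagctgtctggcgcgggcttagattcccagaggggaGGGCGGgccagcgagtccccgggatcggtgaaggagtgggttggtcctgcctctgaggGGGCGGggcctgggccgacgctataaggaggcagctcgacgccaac
Cdkn1b: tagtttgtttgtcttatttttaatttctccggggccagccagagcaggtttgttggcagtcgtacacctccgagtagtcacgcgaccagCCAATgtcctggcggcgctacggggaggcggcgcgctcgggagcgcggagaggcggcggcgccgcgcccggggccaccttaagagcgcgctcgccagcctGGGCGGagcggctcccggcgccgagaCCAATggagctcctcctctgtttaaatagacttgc
Cdkn2c, first start: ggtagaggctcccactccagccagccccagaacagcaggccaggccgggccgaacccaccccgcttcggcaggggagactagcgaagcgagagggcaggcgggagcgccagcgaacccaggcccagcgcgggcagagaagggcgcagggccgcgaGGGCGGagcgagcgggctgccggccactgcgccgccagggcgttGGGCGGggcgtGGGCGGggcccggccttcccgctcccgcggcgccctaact
Cdkn2d: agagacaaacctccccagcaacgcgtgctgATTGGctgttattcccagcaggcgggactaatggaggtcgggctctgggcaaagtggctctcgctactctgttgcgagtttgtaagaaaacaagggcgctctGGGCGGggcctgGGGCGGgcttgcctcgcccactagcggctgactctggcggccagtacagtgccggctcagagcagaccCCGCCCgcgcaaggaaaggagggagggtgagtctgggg
The p53-type spacing stood once, 48 bases before the first start of Cdkn1a, and in 0.490% of 32851 windows of this length. GC boxes stood before the second start of Cdkn1a (2 matches), Cdkn1b (1), the first start of Cdkn2c (3) and Cdkn2d (3), and in 32.7% of all windows. Of the windows not shown, the second start of Cdkn2c had 0, the first start of Cdkn2a 2 and its second start 0. CCAAT stood 2 times before Cdkn1b and 1 time before Cdkn2d, and in 33.8% of all windows. Other patterns searched on both strands are not in these windows: the GATA pattern GATAA, in 22.6% of all windows, the ETS pattern CCGGAA, in 12.03%, the E2F patterns TTTCGCGC, in 0.256%, and TTTGGCGC, in 0.417%, and the forkhead pattern GTAAACA, in 3.17%. No base lay in more than 1 match.

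Which inhibitors the 3 populations carried was asked first. Per length, Cdkn2d was the leading inhibitor in HSC and MkP, and Cdkn2c and Cdkn2d shared the lead in CFU. Cdkn2a was close to silent. Levels were divided by merged exon length, taken from the GENCODE annotation supplied as reference, for this comparison between genes. That length joins all annotated exons, 4552 bases for Cdkn1b and 1574 for Cdkn2d, and the order of genes depends on it. In CPM without the division, Cdkn2d also led in HSC and MkP. In CFU the means were then 24.9 CPM for Cdkn2c, 12.1 for Cdkn1b and 9.82 for Cdkn2d, with Cdkn1b above Cdkn2d. In HSC, Cdkn2d stood at 35.96 ± 5.24 CPM per kilobase (SD, n = 8), followed by Cdkn2c at 10.7 ± 2.94, Cdkn1b at 6.41 ± 1.80, Cdkn1c at 5.84 ± 3.36 and Cdkn1a at 3.38 ± 3.37. In MkP, Cdkn2d stood at 58.2 ± 7.31 CPM per kilobase, Cdkn2c at 8.86 ± 1.85, Cdkn1b at 6.07 ± 1.54, Cdkn1a at 2.74 ± 1.29 and Cdkn1c at 0.473 ± 0.353. In CFU, Cdkn2c led with 9.28 ± 4.53 CPM per kilobase, followed by Cdkn2d at 6.24 ± 1.41, Cdkn1b at 2.65 ± 0.790, Cdkn1a at 0.449 ± 0.309 and Cdkn1c at 0.0869 ± 0.101. Cdkn2d made 57.7% ± 3.79 of the summed level per length of the 6 genes in HSC and 76.04% ± 3.97 in MkP, and the next gene, Cdkn2c, reached at most 22.4% and 17.4% in any mouse. In CFU it made 34.7% ± 10.9 and Cdkn2c 47.8% ± 14.1, and the ranges of the 2 genes over mice overlapped. The summed level per length was 62.3 ± 7.91 in HSC, 76.3 ± 6.92 in MkP and 18.7 ± 3.35 in CFU, and every CFU mouse lay below the lowest HSC mouse (52.2).

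The population contrasts asked which inhibitors differ between the sorted cells. They were fitted over all 24 sums with treatment as a covariate and tested with edgeR's quasi-likelihood test, with p-values adjusted over all 20852 genes tested by the Benjamini-Hochberg method. Of the 6 genes, 5 passed the filter on low counts and Cdkn2a did not. In CFU, 4 of the 5 were lower than in HSC, namely Cdkn1a, Cdkn1b, Cdkn1c and Cdkn2d, where 63.5% of all genes tested were called in either direction and 35.8% as lower. The same 4 were lower in CFU than in MkP, where 53.4% of all genes were called and 31.1% as lower. In MkP against HSC, Cdkn1c was lower and Cdkn2d higher, beside 29.9% of genes called, 13.1% as lower and 16.8% as higher. Cdkn2c passed in none of the 3. The median log2 difference of all genes was -0.27 for CFU against HSC and -0.25 for CFU against MkP, and DESeq2's scaling gave -0.38 and -0.27, so the falls of the 4 genes are to be read against shifts of that size. In such sums, fewer cells of a kind and less RNA per cell cannot be told apart.

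Among the Cip/Kip genes, Cdkn1a, the p53 target that encodes p21, ranged over the 8 mice from 2.09 to 33.9 CPM in HSC with a median of 7.38. It ranged from 4.80 to 19.02 CPM in MkP with a median of 8.96, and from 0.360 to 3.33 in CFU with a median of 1.34. HSC and MkP overlapped widely, and every MkP sum lay above every CFU sum. Cdkn1a was lower in CFU than in HSC with a log2 difference of -2.69 (SE 0.48, edgeR adjusted p = 3.70e-05), and lower than in MkP with -2.61 (SE 0.48, adjusted p = 6.35e-05). MkP and HSC did not pass, with -0.09 and a 95% interval from -1.03 to 0.85. The exons of Cdkn1a share 273 of 3553 bases with an annotated gene on the opposite strand, AC167363.2, whose reads cannot be told apart from its own without a strand rule.

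Cdkn1b, which encodes p27, varied less between mice than Cdkn1a. It ranged from 19.9 to 42.1 CPM in HSC (median 28.2), from 19.6 to 39.2 in MkP (median 25.8) and from 7.18 to 17.3 in CFU (median 10.7). Each CFU sum was lower than all HSC and MkP sums. The log2 difference was -1.29 for CFU against HSC (SE 0.18, edgeR adjusted p = 8.94e-07) and -1.24 for CFU against MkP (SE 0.18, adjusted p = 2.31e-06). For MkP against HSC it was -0.05, with a 95% interval from -0.41 to 0.31.

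Cdkn1c, the imprinted gene that encodes p57, was the inhibitor with the steepest gradient. It ranged from 3.54 to 26.1 CPM in HSC with a median of 10.2. In MkP it ranged from 0.402 to 2.65 CPM with a median of 0.892, and in CFU from 0 to 0.483 with a median of 0.0856. The lowest HSC mouse stood above the highest MkP mouse. The log2 difference was -3.52 for MkP against HSC (SE 0.73, edgeR adjusted p = 0.000666) and -6.39 for CFU against HSC (SE 0.85, adjusted p = 5.54e-07). CFU against MkP gave -2.87 (SE 0.73, adjusted p = 0.00207), which did not pass in the depleted mice alone (-2.03, adjusted p = 0.111). The CFU value rests on 244 counts over the 8 mice, so the size of its fitted difference is loose. Of the 2039 exon bases of Cdkn1c, 625 are shared with the opposite-strand gene Gm44732.

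Among the INK4 genes, Cdkn2d, which encodes p19, had the narrowest spread. It ranged from 46.1 to 73.8 CPM in HSC (median 54.99), from 71.8 to 107 in MkP (median 92.9) and from 7.04 to 13.3 in CFU (median 9.31). HSC and MkP overlapped in 1 mouse each, and CFU lay far below both. Cdkn2d was higher in MkP than in HSC with a log2 difference of 0.69 (SE 0.12, edgeR adjusted p = 0.000115). It was lower in CFU than in HSC with -2.53 (SE 0.13, adjusted p = 5.40e-14) and lower than in MkP with -3.22 (SE 0.13, adjusted p = 3.60e-15). The pair of MkP plates from 1 mouse differed by a median ratio of 1.05 for this gene, against 1.28 for Cdkn1b, 1.36 for Cdkn2c, 1.55 for Cdkn1a and 3.61 for Cdkn1c, whose highest ratio over 7 mice was 141.

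Cdkn2c, which encodes p18, was the 1 tested inhibitor that passed in no contrast between populations. It ranged from 15.6 to 38.4 CPM in HSC (median 29.4), from 15.4 to 49.04 in CFU (median 20.1) and from 18.8 to 31.4 in MkP (median 22.6). The 3 ranges overlapped almost wholly. The log2 difference was -0.25 for MkP against HSC (95% interval -0.67 to 0.18, edgeR adjusted p = 0.412), -0.23 for CFU against HSC (-0.65 to 0.20, adjusted p = 0.348) and 0.02 for CFU against MkP (-0.41 to 0.45, adjusted p = 0.949). The sign of the last turned under several settings. The intervals bound the differences, and the levels are not shown to be equal.

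Cdkn2a, the source of p16 and Arf, had 0 counts in all 697 HSC and all 647 CFU cells, which allows shares of cells with a count of up to 0.430% and 0.464%, counting error only. In MkP, 4 of 1324 cells held 23 counts together. They came from control mouse 1 (6 counts in 2 cells), control mouse 2 (11 counts in 1 cell) and depleted mouse 4 (6 counts in 1 cell). A count of 3 in a sum corresponds to between 0.00915 and 0.0436 CPM over the 24 sums. No difference was tested for Cdkn2a.

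**Figure D1:**
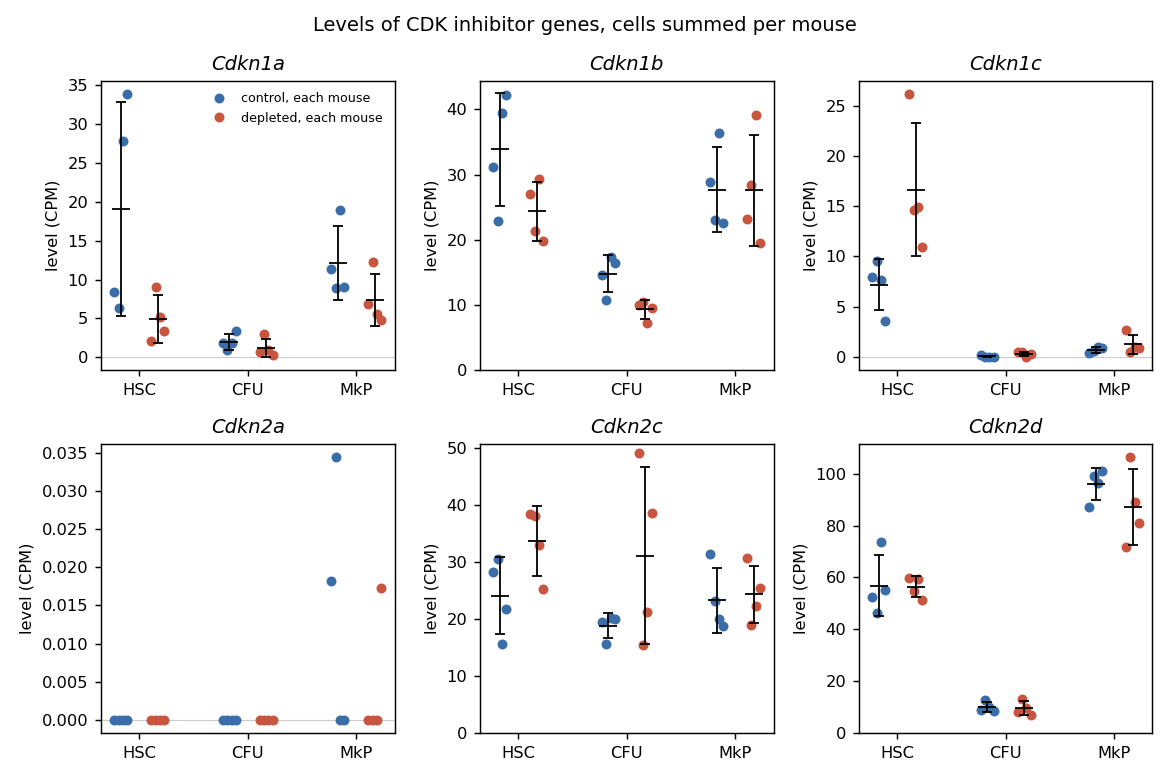
Level (CPM, y axis, its own linear scale in each panel) of the 6 genes in HSC, CFU and MkP, with 1 point per mouse, control in blue and depleted in red, and the mean ± SD of 4 mice in black except for Cdkn2a. The 8 CFU points of Cdkn2d lie between 7.04 and 13.3 CPM, below all HSC and MkP points, while those of Cdkn2c span 15.4 to 49.04.

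How many single cells carried each inhibitor was read after each cell had been thinned to 100000 counts, which left 691 HSC, 646 CFU and 1319 MkP cells. In HSC, 57.1% ± 7.97 of cells held a count of Cdkn1b (SD, n = 8), 49.3% ± 8.85 of Cdkn2d, 35.6% ± 5.34 of Cdkn2c, 17.9% ± 6.60 of Cdkn1c and 10.2% ± 6.89 of Cdkn1a. Without thinning these shares were 76.99%, 59.3%, 44.5%, 23.1% and 13.2%. In MkP, 65.6% ± 5.05 held Cdkn2d, 52.4% ± 7.11 Cdkn1b, 31.6% ± 5.99 Cdkn2c, 11.8% ± 4.46 Cdkn1a and 1.84% ± 1.60 Cdkn1c (73.8%, 78.3%, 39.1%, 16.3% and 2.89% without thinning). In CFU, 54.03% ± 12.6 held Cdkn2c, 42.6% ± 6.56 Cdkn1b, 28.0% ± 5.88 Cdkn2d, 3.65% ± 1.78 Cdkn1a and 0.734% ± 0.868 Cdkn1c (67.01%, 81.4%, 43.2%, 7.49% and 1.83% without thinning). An HSC held a count of 1.70 ± 0.180 of the 6 genes on average, an MkP of 1.63 ± 0.129 and a CFU cell of 1.29 ± 0.113. None of the 6 was seen in 11.3% ± 4.95 of HSC, 10.4% ± 1.80 of MkP and 17.5% ± 5.09 of CFU cells at this depth.

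The counts of Cdkn1a and Cdkn1c sat in few cells. All 939 thinned Cdkn1a counts of HSC came from 68 of 691 cells, with a median of 7.5 and a maximum of 121 in a cell that held any. All 1042 of Cdkn1c came from 125 cells with a median of 6, and 84.7% lay in the top 10% of cells. For Cdkn2d the top 10% of cells held 44.04% of its counts in HSC, 36.1% in MkP and 69.6% in CFU.

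The shares were compared within the 8 mice by an exact two-sided sign-flip permutation test, adjusted over all genes with a mean share of at least 1%, for which the smallest possible p was 0.00781. In CFU against HSC, Cdkn1a, Cdkn1b, Cdkn1c and Cdkn2d had lower shares in 8 of 8 mice (adjusted p = 0.0131 each, exact test), and 71.9% of all genes were called, 23.3% as lower. In MkP against HSC, Cdkn1c was lower and Cdkn2d higher in 8 of 8 mice (adjusted p = 0.0249 each, exact test), beside 39.6% of genes called, 13.3% as lower and 26.4% as higher. In CFU against MkP, Cdkn1a and Cdkn2d were lower in 8 of 8 mice (adjusted p = 0.0135 each, exact test) and Cdkn1b in 6 of 8 (adjusted p = 0.0452), beside 69.1% of genes called, 20.4% as lower. Cdkn1c did not pass there (adjusted p = 0.186, exact test). The Cdkn1b call in CFU against MkP was lost without any 1 of 6 mice, all but control mouse 1 and depleted mouse 4 (adjusted p = 0.0861 to 0.0877, exact tests). At 500000 counts it was also lost (-1.92 points, adjusted p = 0.683, exact test), as was that in CFU against HSC (-3.77 points, adjusted p = 0.344, exact test). Both Cdkn1b calls rest on the depth: without thinning its share was 4.45 percentage points higher in CFU than in HSC and 3.09 points higher than in MkP. Shares without thinning compare unlike depths. Median counts per cell ranged by mouse from 1901157 to 2640913 in CFU, 681559 to 1635972 in HSC and 1191705 to 1871093.5 in MkP.

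Cdkn2c stood apart between its share and its level. Its share was 18.5 percentage points higher in CFU than in HSC and 22.4 points higher than in MkP, in 8 of 8 mice each (adjusted p = 0.0131 and 0.0135, exact tests), beside 48.6% and 48.8% of genes called higher. Its level did not follow, and the median count in a cell that held any was 3 in CFU, 8 in HSC and 6 in MkP. At a depth of 20000 counts the differences were 0.21 and 4.48 points and did not pass, nor did they when a cell had to hold at least 3 counts (0.93 and 5.47 points). No order of the populations is read from this share.

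**Figure D2:**
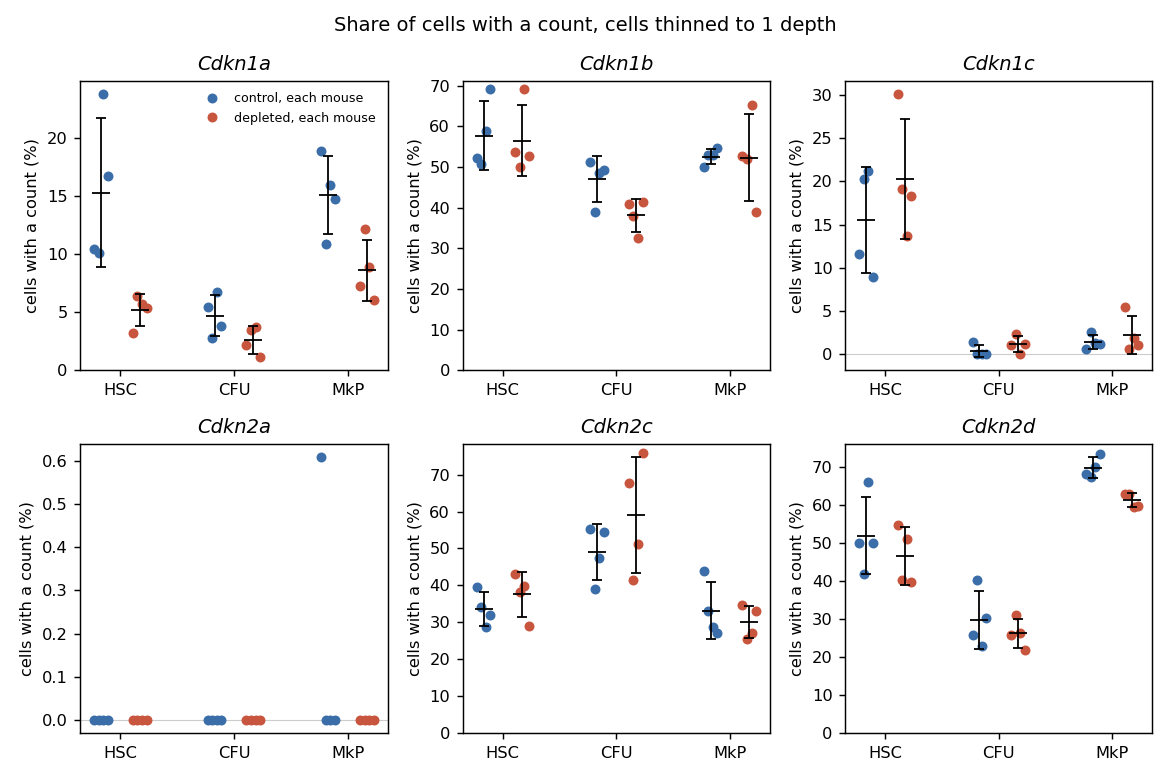
Percent of cells with a count (y axis, linear) of each gene in HSC, CFU and MkP after thinning to 100000 counts, with 1 point per mouse, control in blue and depleted in red, and mean ± SD of 4 mice in black except for Cdkn2a. Cdkn1c is held by 17.9% of HSC but 1.84% of MkP and 0.734% of CFU cells. The Cdkn1a points of depleted HSC all lie below those of control HSC, which holds for 8.95% of 16056 genes.

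Cells were next divided within each mouse by a count of Mki67, a gene of cycling cells, to ask whether inhibitor levels differ with it. Mki67 was present in 114 of 691 HSC, 631 of 1319 MkP and 626 of 646 CFU cells at the thinned depth, which left too few CFU cells without it for a comparison. The sums here add thinned cells, so each cell weighs the same, and edgeR was fitted with the mouse as a block. This level test was added after seeing the data. In MkP, Cdkn2d was higher in cells with Mki67, as 1 of 4 tested inhibitors, where 8.6% of 12210 genes were called and 5.63% as higher. Its levels in cells with Mki67 ranged from 73.7 to 154 CPM (median 116), against 60.7 to 87.7 (median 71.9) in cells without. All 8 mice had the higher level in cells with Mki67, though depleted mouse 1 by little (73.7 against 71.7). The log2 difference was 0.69 (SE 0.10, edgeR adjusted p = 0.000344).

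The other 3 tested inhibitors did not pass in MkP. Cdkn2c was 27.5 ± 6.80 CPM with and 21.1 ± 3.85 without Mki67, higher in 7 of 8 mice (log2 difference 0.38, edgeR adjusted p = 0.129). Cdkn1b was 27.2 ± 10.7 and 33.6 ± 9.97 CPM (-0.34, adjusted p = 0.278). Cdkn1a was 10.8 ± 3.74 and 9.47 ± 6.78 CPM (0.41, adjusted p = 0.587). In HSC none of 5 passed, where 3.56% of 11437 genes were called. An unadjusted edgeR p under 0.05 was held by 0 of the 5 and by 1931 of all genes tested. There, Cdkn1c was 7.34 ± 2.68 CPM with and 14.2 ± 10.3 without Mki67 (-0.67, edgeR adjusted p = 0.576), Cdkn2c 41.7 ± 18.02 and 28.7 ± 9.22 (0.53, adjusted p = 0.315), and Cdkn2d 68.8 ± 19.4 and 56.02 ± 13.04 (0.32, adjusted p = 0.475).

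**Figure D3:**
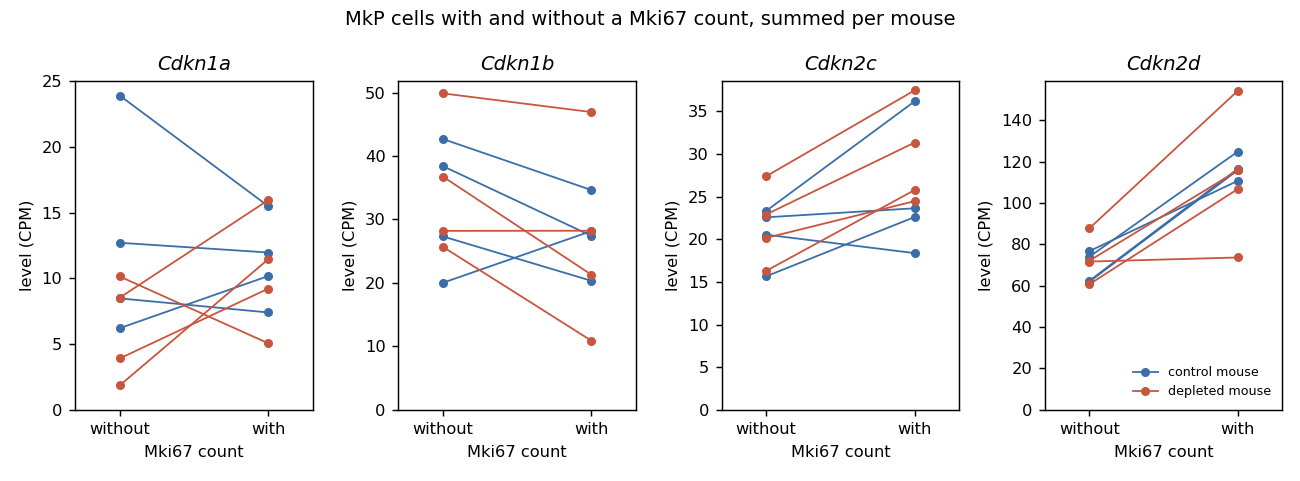
Level (CPM, y axis from 0) of 4 genes in MkP cells without and with a Mki67 count, thinned cells summed per mouse, with a line for each of the 8 mice, control in blue and depleted in red. The Cdkn2d lines all rise, from 60.7 to 87.7 CPM without Mki67 to 73.7 to 154 with it, while those of Cdkn1a and Cdkn1b cross.

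Shares of cells gave the same direction in MkP, where Cdkn2d was held by 74.3% ± 5.98 of cells with and 58% ± 7.26 of cells without Mki67, and Cdkn2c by 39.7% ± 7.59 and 24.8% ± 6.38 (8 of 8 mice and adjusted p = 0.0363 each, exact sign-flip test). This is little to read, since 21.4% of 15488 genes were higher in every mouse and 0.123% lower, and cells with Mki67 held more genes (medians per mouse 4697 to 5639) than cells without (4008 to 4967). In HSC, Cdkn2d was held by 70.8% ± 14.4 and 45.5% ± 8.53, higher in 8 of 8 mice (exact p = 0.00781, adjusted p = 0.0900), and Cdkn2c by 52.3% ± 16.9 and 32.8% ± 6.45 (exact p = 0.0234, adjusted p = 0.130). Both HSC shares missed the threshold, as did all 16274 genes. Of these genes, 8.47% were higher in every mouse and 0.215% lower. HSC with Mki67, as few as 5 in a mouse, also held more genes (medians per mouse 4299 to 5835) than HSC without (3835 to 4724).

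The population contrasts were repeated within cells with Mki67 alone, which was added after seeing the data. Their HSC side rests on 114 cells, as few as 5 in a mouse, against 631 MkP and 626 CFU cells. Cdkn1a, Cdkn1b and Cdkn2d were again lower in CFU than in HSC (-3.52, -1.47 and -2.59, largest edgeR adjusted p = 6.19e-05) and than in MkP (-3.46, -1.29 and -3.27, largest adjusted p = 0.000143). Cdkn1c was again lower in CFU than in HSC (-5.27, adjusted p = 2.69e-05) and missed the threshold against MkP (-1.82, adjusted p = 0.0773). Cdkn2c now passed for CFU against HSC (-0.79, adjusted p = 0.00678). Cdkn2d in MkP against HSC was 0.68 in cells with Mki67 (adjusted p = 0.0250) and 0.32 in cells without, where it did not pass (adjusted p = 0.0681).

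Platelet depletion was the study's treatment, and its contrast was fitted within each population, 4 mice against 4. In none of the 3 populations did edgeR call any of the 5 tested inhibitors, and it called hardly any other gene: 0.0% of 17146 in HSC, 0.0% of 15661 in CFU and 0.0108% of 18512 in MkP. At an unadjusted p under 0.05 stood 2 inhibitors in HSC (Cdkn1a and Cdkn1c), 1 in CFU (Cdkn1b) and 0 in MkP. Of all genes tested, 1467 of 17146 in HSC, 1857 of 15661 in CFU and 2532 of 18512 in MkP stood there too. DESeq2 called 0, 1 and 0 of the 5, beside 1.7%, 3.67% and 7.6% of the 15703, 12876 and 12752 genes it gave an adjusted p. In CFU it gave Cdkn1c no adjusted p, so that gene could not be called there. The median log2 difference of the 5 was -0.03, -0.15 and 0.00, against 0.00, 0.01 and 0.01 over all genes.

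In HSC, the level of Cdkn1a was 8.43, 6.33, 27.8 and 33.9 CPM in control mice 1 to 4 and 2.09, 9.10, 5.14 and 3.40 in depleted mice 1 to 4. The groups overlapped, because depleted mouse 2 stood above the 2 lower controls. The means were 19.1 ± 13.8 and 4.93 ± 3.05 CPM, with a log2 difference of -1.96 (SE 0.63, 95% interval -3.37 to -0.54, edgeR adjusted p = 0.456). The share of HSC with a Cdkn1a count was 10.5%, 10.1%, 23.8% and 16.7% in control mice and 3.23%, 6.38%, 5.68% and 5.38% in depleted mice, with no overlap (exact permutation p = 0.0286, the smallest that 4 against 4 mice can give, adjusted p = 0.302). Of all 16056 genes, 8.95% had lower shares in all depleted mice and 0.517% higher ones, and genes per HSC ranged by mouse from 5700 to 6808 in controls and 5329.5 to 5758 in depleted mice, medians before thinning. The part of this general shift in the Cdkn1a share was not tested. Cdkn1a had lower means in depleted mice in MkP too, 7.38 ± 3.36 against 12.1 ± 4.76 CPM (log2 difference -0.70, edgeR adjusted p = 0.432), and in CFU, 1.22 ± 1.19 against 1.97 ± 1.01 (-0.78, adjusted p = 0.705). Single mice moved both values: the MkP difference was -1.06 without depleted mouse 2 and -0.39 without control mouse 3, and the CFU difference -1.69 without depleted mouse 2 and -0.40 without control mouse 4. The share of MkP with a Cdkn1a count was 8.58% ± 2.64 against 15.1% ± 3.34 (exact permutation p = 0.0571, adjusted p = 0.225).

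Cdkn1c in HSC moved the other way. Its level was 7.98, 9.54, 7.66 and 3.54 CPM in control mice and 26.1, 14.6, 14.96 and 10.9 in depleted mice. Each depleted mouse stood above each control mouse, which holds for 3.48% of 13434 genes with a mean of at least 1 CPM. The means were 7.18 ± 2.56 and 16.7 ± 6.59 CPM, with a log2 difference of 1.19 (SE 0.39, 95% interval 0.32 to 2.07, edgeR adjusted p = 0.465). Its share of HSC was 15.5% ± 6.14 and 20.3% ± 6.98, and these overlapped. Cells with Mki67 made 20.9% ± 8.66 of control and 12.7% ± 5.64 of depleted HSC, and their part in the Cdkn1c values was not tested.

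In CFU, Cdkn1b was 14.6, 10.8, 17.3 and 16.4 CPM in control mice and 10.1, 10.5, 7.18 and 9.55 in depleted mice. Each depleted mouse stood below each control mouse, by as little as 10.5 against 10.8 CPM, which holds for 2.83% of 11382 genes with a mean of at least 1 CPM. The log2 difference was -0.73 (SE 0.21, 95% interval -1.20 to -0.26, edgeR adjusted p = 0.285), and DESeq2 called it (-0.73, adjusted p = 0.0258). The share of CFU cells with Cdkn1b was 47.1% ± 5.57 and 38.2% ± 4.07 (exact permutation p = 0.0857, adjusted p = 0.745). Erythroid markers of CFU summed to 14501 to 16596 CPM in the control group against 17273 to 20363 with depletion, and their part in the Cdkn1b value was not tested. Cdkn1b means in HSC were 33.9 ± 8.67 and 24.4 ± 4.55 CPM and in MkP 27.7 ± 6.46 and 27.6 ± 8.54.

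Among the INK4 genes, mean levels of Cdkn2d in control against depleted mice were 56.9 ± 11.9 against 56.3 ± 4.07 CPM (HSC), 10.1 ± 1.95 against 9.54 ± 2.73 (CFU) and 96 ± 6.17 against 87.2 ± 14.8 (MkP). The 95% intervals of its log2 difference ran from -0.37 to 0.32 in HSC, from -0.69 to 0.40 in CFU and from -0.39 to 0.14 in MkP. The share of MkP with Cdkn2d was 68.3%, 67.5%, 70.1% and 73.6% in control mice and 63.03%, 63.01%, 59.5% and 59.9% in depleted mice, with no overlap (exact permutation p = 0.0286, adjusted p = 0.185). That direction is common there: 15.2% of 15467 genes had lower shares in all depleted MkP samples and 0.278% higher ones. MkP cells with Mki67 made 56.5% ± 8.91 in control and 39.9% ± 5.22 in depleted mice, and median genes per MkP cell were 6557 to 7171.5 and 5509 to 6180. The part of either in the Cdkn2d share was not tested. Cdkn2c was 24.03 ± 6.76 and 33.7 ± 6.13 CPM in HSC (log2 difference 0.46, edgeR adjusted p = 0.641), 18.8 ± 2.15 and 31.03 ± 15.5 in CFU (0.67, adjusted p = 0.479), and 23.3 ± 5.68 and 24.3 ± 4.96 in MkP (0.08, adjusted p = 0.908). In depleted CFU, Cdkn2c stood at 49.04, 15.4, 21.2 and 38.5 CPM, against 15.6 to 20.2 CPM in control mice, so 1 depleted mouse lay below all controls and 3 above. Without depleted mouse 1 the CFU difference was 0.34, and without depleted mouse 2 it was 0.88.

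An interaction term over the 6 groups tested whether the treatment difference varied with population. No inhibitor passed in any of the 3 interactions (MkP against HSC, CFU against HSC and CFU against MkP). There, edgeR called 0.0144%, 0.0% and 0.0% of 20852 genes. An unadjusted edgeR p under 0.05 was held by 0 of 5 in each, and by 1261, 1887 and 1229 of all genes tested. The lowest edgeR adjusted p was 0.764, for Cdkn1a in CFU against HSC. DESeq2 also called 0 of 5 in each. It gave 1 of them an unadjusted p under 0.05 in CFU against MkP, beside 1474 of all genes. The differences of Cdkn1a and Cdkn1c in HSC are thus not shown to differ from those in the other populations.

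The kinases and cyclins that these inhibitors act on, and their regulators, were read by lists. Beside the counts stand the shares over all genes tested, which were 27.7% higher and 35.8% lower in CFU than in HSC, 16.8% and 13.1% in MkP than in HSC, and 22.3% and 31.1% in CFU than in MkP. Of 15 cyclin and kinase genes tested, 12 were higher and 2 lower in CFU than in HSC, with a median log2 difference of 1.29. Ccne1, a cyclin of Cdk2, was 445 ± 43.2 CPM in CFU and 7.19 ± 6.14 in HSC (6.06, edgeR adjusted p = 1.48e-11). Ccna2, an S phase cyclin, was 553 ± 29.5 and 34.4 ± 25.6 CPM (4.02). The D cyclins Ccnd1 and Ccnd2, partners of Cdk4 and Cdk6, were lower: Ccnd2 was 130 ± 45.8 CPM in CFU and 701 ± 81.05 in HSC (-2.45), and Ccnd1 11.3 ± 5.58 and 80.3 ± 25.9 (-2.92). In MkP against HSC, 10 of the 15 were higher, with Ccnb2 at 144 ± 29.6 against 28.2 ± 15.2 CPM, and Ccnd1 was lower. In CFU against MkP, 9 were higher and 4 lower, Ccnd2 (-2.10) and Ccnd1 (-1.91) among the latter.

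Of 13 pocket protein and E2F genes, 10 were higher and 2 lower in CFU than in HSC, 9 and 2 in MkP than in HSC, and 5 and 2 in CFU than in MkP. E2f8, an E2F repressor, rose from 9.80 ± 4.98 CPM in HSC to 90.04 ± 16.7 in MkP and 97.4 ± 13.4 in CFU, both called against HSC. Rbl2, the pocket protein p130, was lower in CFU (37.6 ± 7.38) and MkP (49.3 ± 16.4) than in HSC (73.9 ± 17.1 CPM). Of 7 genes of p27 turnover tested, 6 were higher and 0 lower in CFU than in HSC. Their turnover is of the p27 protein, while all levels here are of RNA, so p27 itself was not measured. Ubac1, a subunit of a ubiquitin ligase for p27, was 241 ± 22.3 CPM in CFU and 17.6 ± 4.19 in HSC (3.78, edgeR adjusted p = 1.36e-16). Cks1b, a cofactor of Skp2, was 352 ± 42 and 64.6 ± 28.3 CPM (2.48). In MkP against HSC 3 of the 7 were higher, Cks1b at 195 ± 36.9 CPM and Skp2 at 17.3 ± 3.97 against 6.84 ± 2.58 among them. In CFU against MkP 6 were higher.

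The p53 list holds p53, the regulator of Cdkn1a, and other targets. Of its 18 genes, 6 were higher and 7 lower in CFU than in HSC, with a median of -0.37, against -0.27 for all genes, and these counts lie near the shares over all genes (27.7% and 35.8%). Plk2, a kinase induced by p53, was 59.1 ± 47.1 CPM in HSC and 0.280 ± 0.466 in CFU (-7.51, edgeR adjusted p = 1.12e-06), while the p53 target Phlda3 was 0.611 ± 1.07 and 18.2 ± 5.08 (4.89, adjusted p = 0.000428) and Bax, a promoter of cell death, 55.1 ± 6.89 and 127 ± 14.5 (1.20). In MkP against HSC 4 were higher and 4 lower, with Btg2, an antiproliferative gene, at 198 ± 103 against 33.1 ± 12.9 CPM. In CFU against MkP 7 were higher and 7 lower.

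Polycomb genes are known to repress Cdkn2a. Of 13, 3 were higher and 7 lower in CFU than in HSC, 3 and 3 in MkP than in HSC, and 4 and 7 in CFU than in MkP. Ezh2, the main methyltransferase of the complex, was 44.9 ± 16.5 CPM in HSC, 114 ± 8.05 in MkP and 172 ± 18.02 in CFU. Cbx7, a chromobox subunit, ran the other way, with 51.2 ± 9.95, 13.8 ± 3.77 and 7.91 ± 2.496 CPM. All 18 G2/M genes and all 16 S phase genes were higher in CFU than in HSC (medians 3.06 and 2.16), and 17 and 16 of them were higher in MkP than in HSC. Cdkn3, a phosphatase of Cdk2 outside the 6 genes, was 3.55 ± 2.23 CPM in HSC, 11.5 ± 2.94 in MkP and 23.5 ± 3.14 in CFU, higher in MkP than in HSC and in CFU than in MkP by edgeR (larger adjusted p = 0.0321). In the depletion contrasts edgeR called 0 genes of any of these lists in all 3 populations.

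Genes most like each inhibitor were sought by Pearson's r of log2 CPM over the 24 sums, among up to 8924 genes with a mean of at least 10 CPM. The 24 sums come from 8 mice and 3 populations, so r follows the population differences, and it is a description. Cdkn1a was most like Cdkn1b (r = 0.87), Bcl10 (0.86) and Emp3 (0.86). Cdkn1b was most like Vgll4 (0.90), Nr4a1 (0.90) and Ier3 (0.90). Cdkn1c went with Gch1 (0.94), Slc12a7 (0.93) and Chrnb1 (0.93). For Cdkn2d the values were highest, with Rgs18 (0.99) and Dapp1 (0.98), and for Cdkn2c lowest, with Stk24 (0.73), Zfp760 (0.68) and Stimate (0.65).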

How the data were processed

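Single cells were sorted into wells, and per the labels' protocols each was made into a Smart-seq2 library. The authors deposited whole-number read counts per gene and well. The submitters' processing notes name Trim Galore 0.5, STAR 2.6.0 and HTSeq 0.6.1. For genome build, annotation and strand rule, the answer is not given in the sources used here. In the matrix, 1 column matched no sample and was not used, and rows of 107 repeated symbols were added. Wells with at least 20000 counts, 1000 genes and at most 20% mitochondrial counts were kept (2668, with 401 removed). Cells were sorted singly, and no doublet caller was run.

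Counts were added per mouse and population and tested with edgeR 4.0.16 in R 4.3.3 (quasi-likelihood test, TMM scaling, filterByExpr, Benjamini-Hochberg threshold 0.05), with DESeq2 1.42.0 as an alternative. The code was tested on simulated data. The labels do not state that the codes are separate mice, and p-values measure the spread between these samples. Shares of cells were read after thinning and compared by exact permutation tests, adjusted over all genes tested rather than over the 18 member tests first planned. Smart-seq2 reads carry no molecular identifiers, so upper limits and floors for counts of 0 cover counting error only, while the intervals of fitted differences reflect the spread between mice. The 3 populations with 1 code were taken as 1 mouse, and their deviations from group means correlated at 0.0368 to 0.202 over 8924 genes. The text names all 6 members and, from each list, among the up to 2 called genes per direction with the largest differences and a mean of at least 10 CPM in the higher group. For likeness it names the 3 genes with the highest r, of which 1 is not reported here. The members and lists were chosen with earlier results of these data known.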

Additional observations from a re-analysis of the deposited data

Results flagged for a closer look

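In 72 groups of 4 mice, the highest and lowest values of each inhibitor were checked by Dixon's gap test, which chance alone passes in about 1 of 20 groups of continuous values, and 4 values stood far from the other mice. In 3 of these the other 3 mice were all at 0, which passes whatever the value, so that rate does not hold for them. The share of CFU cells with Cdkn1c was 1.35% in control mouse 1 and 0 in the other 3 control mice. The share of MkP cells with Cdkn2a was 0.610% in control mouse 1 and 0 in the other 3, at the thinned depth. The level of Cdkn2a in MkP was 0.0173 CPM in depleted mouse 4 and 0 in the other 3 depleted mice. The level of Cdkn2c in CFU was 15.6 CPM in control mouse 2, below 19.4, 20.2 and 20.1 CPM in the others.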

How the results depend on the processing

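Of 213 alternative values of counts of called inhibitors, 199 stayed within 1.5 times. Many of these are counts of 0 for depletion and interactions, where edgeR called at most 3 of all genes in the main setting. Their staying at 0 says little. Of 900 values of single inhibitors, 826 kept their direction and side of the threshold. DESeq2 called 1 inhibitor for depletion in CFU, and in MkP against HSC 1 stayed called with a mean of at least 8 CPM, which leaves Cdkn1c out, and 1 in cells without Mki67. The inhibitors called by share between cells with and without Mki67 fell to 0 at 20000 counts, at 500000, without thinning, and without any 1 mouse (0 to 0, adjusted p 0.0577 to 0.0695), where 7 mice allow only a larger smallest exact p. The Cdkn2d difference stayed at 12.6 to 18.6 points over these settings and the Cdkn2c difference at 7.52 to 16.6, and the cause of the losses by depth was not tested. The same mice gave all populations, and with the mouse as replicate block 2, 4 and 4 inhibitors were called between populations and 0 in each interaction, as without it. Signs turned for uncalled values: Cdkn1b for depletion in MkP (DESeq2 -0.0035, 8 CPM -0.054, all 24 sums -0.0072), Cdkn1a in MkP against HSC (replicate block 0.16, depleted mice 0.56), Cdkn1b there (depleted mice 0.16, cells without Mki67 0.0069), and Cdkn2c in CFU against MkP (DESeq2 -0.011, 8 CPM -0.12, without wells over 10000 genes -0.0048, thinned -0.017, control mice -0.30, cells with Mki67 -0.18). Without thinning, where the populations differ in depth, the Cdkn1b share differed by 1.36 points for MkP against HSC. It differed by 4.45 for CFU against HSC and 3.09 for CFU against MkP. Leaving out 1 mouse gave, for depletion, -0.10 to 0.11 (Cdkn2d, HSC), -0.20 to 0.16 (Cdkn1b, MkP) and -0.058 to 0.25 (Cdkn2c, MkP). It gave -0.26 to 0.25 and -0.14 to 0.071 for Cdkn1a and Cdkn1b in MkP against HSC, and -0.11 to 0.15 for Cdkn2c in CFU against MkP. For cells with Mki67 in HSC it gave -0.55 to 0.28 (Cdkn1a) and -0.18 to 0.029 (Cdkn1b). Over all genes, DESeq2 called 267, 472 and 969 for depletion in HSC, CFU and MkP against 0, 0 and 2 by edgeR, and 320, 587 and 459 against 3, 0 and 0 for the interactions, and the cause was not tested. With a mean of at least 8 CPM, where fewer genes are tested, depletion gave 6, 37 and 147, CFU against HSC 7692 against 13245, and CFU against MkP 6986 against 11128. The fit of all 24 sums gave 47, 51 and 1 for depletion. MkP against HSC gave 2777 in control and 3591 in depleted mice alone and 2494 in cells with Mki67, against 6242. Cells with Mki67 gave 8172 and 7074 for CFU against HSC and MkP. In cells with against without Mki67 in HSC, 407 genes fell to 265, 228 and 235 without control mouse 1, control mouse 3 and depleted mouse 1.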
